A study of Rattus norvegicus with 16 samples.

Results

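The mir-130 and mir-301 family of the rat comprised 4 microRNA (miRNA) hairpins among the reads, rno-mir-130a, rno-mir-130b, rno-mir-301a and rno-mir-301b, out of 392 hairpins in all. They were chosen by name, because the 3' arms of these hairpins carry the same seed, and every read assigned to one of the 4 names was taken. The samples were whole tissues of adult male rats of the inbred strains BN-Lx (polydactyly-luxate syndrome brown Norway) and SHR (spontaneously hypertensive rat), with no treatment. Brain, liver, spleen, heart, testis and kidney came from 1 rat of each strain, and the liver was profiled again in 4 further samples, liver 2 and liver 3 of each strain, which gave 12 libraries of the six-tissue set and 16 in all. Each tissue therefore had 1 library per strain, the same 2 rats supplied all 6 tissues, and only the liver had 3 libraries per strain.

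A miRNA is cut from a hairpin-shaped precursor. Either arm of the hairpin can yield the mature strand, which is loaded into an Argonaute protein and guides it to messenger RNAs that pair with its seed, bases 2 to 8 from the 5' end. miRNAs with the same seed are grouped as a family because they can pair with the same target sites. The miR-130 and miR-301 family is known from work on blood vessels, the heart and fat cells, where miR-130a has been studied in endothelial cells and miR-130 targets the mRNA of the nuclear receptor PPARG.

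The mature sequences are shown with the seed in capitals, because the shared seed of the 3' arms is what defines the family. They were taken from RefSeq (GRCr8), which listed 7 of the 8 member arms. The 3' arm of rno-mir-301a is named only. The 3' arms were as follows.
rno-miR-130a-3p: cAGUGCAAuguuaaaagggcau
rno-miR-130b-3p: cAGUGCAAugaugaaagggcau
rno-miR-301b-3p: cAGUGCAAugguauugucaaagc
The 5' arms are shown because their seeds split the family in another way.
rno-miR-130a-5p: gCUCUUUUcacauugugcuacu
rno-miR-130b-5p: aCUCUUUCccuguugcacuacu
rno-miR-301a-5p: gCUCUGACuuuauugcacuac
rno-miR-301b-5p: gCUCUGACuagguugcacuacu
The first 10 bases of the 3 printed 3' arms were identical. The rno-miR-130a-3p and rno-miR-130b-3p sequences were identical at 20 of 22 positions, whereas rno-miR-130b-3p and the first 22 bases of rno-miR-301b-3p were identical at 12. In the RefSeq hairpin of rno-mir-301a the 7 bases that follow the leading 5' base of the 3' arm reads were AGUGCAA as well, so that all 4 members shared the seed. Of the 724 mature rat sequences in the table, 3 held this seed, and all 3 belonged to the family. The 5' arms of rno-mir-301a and rno-mir-301b shared the seed CUCUGAC, while those of rno-mir-130a (CUCUUUU) and rno-mir-130b (CUCUUUC) each had a seed of their own.

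The hairpins lie at 3 places in the rat genome (RefSeq, GRCr8). Mir130a is at chr3:90229228-90229315 on the minus strand, where the gene Mir3590 is annotated on the opposite strand. Mir301a is at chr10:72422599-72422698 on the plus strand, within the span of the protein-coding genes Ska2, which acts in chromosome segregation, and Prr11. Mir301b (chr11:97384033-97384110) and Mir130b (chr11:97384380-97384461) are neighbours on the plus strand with 269 bases between them, both within the span of the protein-coding gene 2610318N02Rikl. Exons and introns of these genes were not analysed here. The deposited positions refer to the hairpins, and the study mapped its reads to the older build RGSC3.4.

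Total reads per library ranged from 26880 in BN-Lx testis to 3229461 in SHR liver 3, and the testis libraries were the shallowest by more than 10 times. The defining liver miRNA mir-122-5p took 26.6% to 45.6% of the reads of the 6 liver libraries and at most 0.108% of any other library. The further livers also differed from the livers of the six-tissue set in read length, with longest reads of 28 to 29 nt against 24 to 25 nt. For the family, 2 libraries stood apart, BN-Lx kidney and SHR liver 3, in both of which mir-130a-3p was low. Several results that rest on them are given with and without them. In whole tissue, fewer cells that make a miRNA and less of it per cell cannot be told apart. Levels are given as CPM, counts per 1000000 reads, with library sizes scaled by the trimmed mean of M values (TMM) over the 16 libraries.

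The 8 member arms held 61800 reads, between 0.183% and 0.713% of a library. The 3' arms of rno-mir-301a (35329 reads) and rno-mir-130a (23858 reads) together made up 99.6% of the 59430 reads with the shared seed. In contrast, mir-301b-3p had 153 reads and mir-130b-3p 90. The chromosome 11 cluster thus carried the family seed at low read numbers, with none in testis, and its 3' arms reached 10 reads in only 3 libraries (mir-301b-3p) and 2 libraries (mir-130b-3p).

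Within the six-tissue set, the members of the cluster were highest in spleen. The level of mir-130b-5p was 164 CPM in BN-Lx spleen and 115 CPM in SHR spleen. Outside spleen, the highest level of this arm in the six-tissue set was 24.4 CPM, in SHR heart. Both spleens lay above all 10 other libraries of the set, without overlap. The level of mir-301b-3p was 52.2 CPM and 67.4 CPM in BN-Lx and SHR spleen, from 36 and 37 reads. Its next highest level in the set was 13 CPM, in SHR heart, and the further livers held up to 18.7 CPM. The level of mir-130b-3p was 29.0 CPM and 38.3 CPM, from 20 and 21 reads, with a next highest level in the set of 11 CPM in SHR kidney and up to 12.5 CPM in the further livers. Spleen thus lay above every other library for these 3 arms of the cluster. The fourth, mir-301b-5p, had 2 reads in BN-Lx spleen and 5 in SHR spleen and none in the other 14 libraries. Outside spleen, mir-301b-3p and mir-130b-3p had at most 9 reads in a library of the set. The share of all arms with such a separation was not computed.

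mir-301a-3p shared the high level in spleen, but was abundant throughout. Its level was 3348 CPM in BN-Lx spleen and 4425 CPM in SHR spleen. Kidney followed with 3389 and 2435 CPM, and heart with 2730 and 2246 CPM. These neighbours overlapped between the strains, so that their order was not resolved. Testis (1822 and 1777 CPM) and brain (1343 and 1906 CPM) also overlapped each other, and both lay below heart on the TMM scale. This order depended on the scaling. With reads divided by the mean of the known arms without the 3 highest, testis (3.9 and 3.26) lay above heart (2.3 and 1.89). Brain (2.01 and 2.65) overlapped heart on that scale. Liver of the six-tissue set was lowest, with 959 CPM in BN-Lx and 871 CPM in SHR, below all 10 other libraries of that set.

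mir-130a-3p had a different order of tissues, and 1 library that stood apart. Its level was 1865 CPM in BN-Lx heart and 1148 CPM in SHR heart, and 1466 and 1195 CPM in liver. Spleen held 1755 CPM in BN-Lx and 789 CPM in SHR. Brain was lower, with 654 and 624 CPM, and testis lower still, with 148 and 355 CPM from 10 and 23 reads. In kidney the strains were far apart: 87.9 CPM in BN-Lx, the lowest level of the set, and 2585 CPM in SHR, the highest. Heart, liver and spleen overlapped one another, and on the TMM scale brain and testis lay below these 3 tissues in both strains. With reads divided by the mean of the known arms without the 3 highest, SHR brain (0.869) lay above SHR spleen (0.784).

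**Figure D1:**
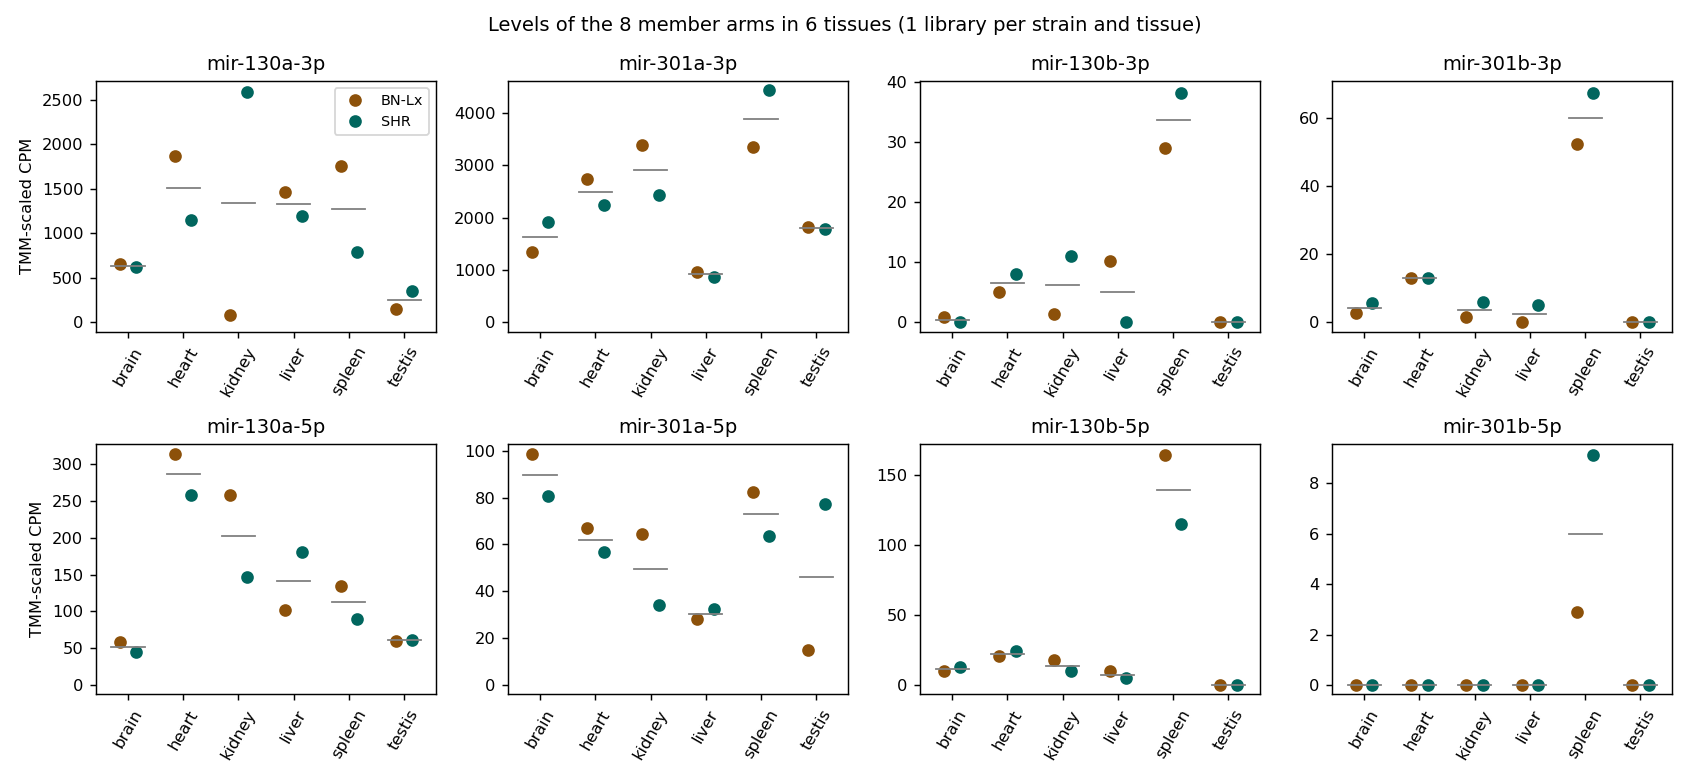
TMM-scaled CPM (linear axes, a different scale in each panel) of the 8 member arms in the 6 tissues, with 1 point per library coloured by strain and a grey line at the mean of both strains. The arms of mir-130b and mir-301b stand out in spleen, mir-301a-3p is lowest in liver (871 and 959 CPM), and mir-130a-3p in kidney is 87.9 CPM in BN-Lx and 2585 CPM in SHR.

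To test the tissue differences, each tissue was compared with the mean of the other 5 over the 12 libraries, with strain as a term (edgeR's quasi-likelihood test, Benjamini-Hochberg adjustment within each comparison). Of the 8 member arms, 7 were among the 457 arms that passed the filter on low counts. In spleen, 4 of the 7 were called higher and none lower, where 18.4% of all arms tested were called higher and 10.7% lower. These were mir-130b-5p (log2 fold change 4.64, SE 0.59, adjusted p = 0.000149), mir-301b-3p (4.61, SE 0.77, adjusted p = 0.00104), mir-130b-3p (4.07, SE 1.08, adjusted p = 0.0154) and mir-301a-3p (1.08, SE 0.29, adjusted p = 0.0152). Each was higher in spleen than the mean of the other tissues in both strains. In the six-tissue set, mir-301b-3p and mir-130b-3p reached 10 reads only in the 2 spleens. These 2 arms therefore passed the filter through spleen alone, so the count of 4 of 7 was set in part by the filter. The share of 18.4% is for that reason no test of this count. The size of the first 3 changes rests partly on the testis, in which mir-130b and mir-301b had 0 reads. Without the testis libraries the edgeR log2 fold changes were 3.47, 3.73 and 3.29, and all 4 arms were still called (adjusted p from 0.000279 to 0.0157).

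The call of mir-130b-3p in spleen did not hold with DESeq2 (log2 fold change 3.19, adjusted p = 0.191) or without either spleen library (edgeR adjusted p = 0.151 and 0.190). The call of mir-301a-3p was lost without SHR spleen (adjusted p = 0.195), with the further livers included (0.395), and with scaling by relative log expression (0.0589) or by total reads (0.12). The calls of mir-130b-5p and mir-301b-3p held under every alternative that gave a value per arm. In the main fit mir-301b-3p was tested only because of its reads in spleen, and the alternatives include a fit with no filter on low counts. Without SHR spleen, 2 of the member arms were called in place of 4. The median change of all arms in spleen was 0.05 under TMM scaling and -0.35 under scaling by total reads, under which 58 arms were higher and 57 lower in place of 84 and 49.

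In liver, 1 of the 7 member arms was called lower and none higher, beside 12% of all arms called lower and 13.8% called higher. This was mir-301a-3p, at a log2 fold change of -1.40 (SE 0.35, edgeR adjusted p = 0.0131). It was lost without either liver library (adjusted p = 0.122 and 0.143), and with the further livers included it turned to 0.40 (adjusted p = 0.466). The further livers held 3950 to 4848 CPM of mir-301a-3p against 871 and 959 CPM in the livers of the six-tissue set, so that the low level in liver was seen in 2 of 6 liver libraries. Scaling by total reads moved the split of calls in liver from 63 higher and 55 lower to 34 and 102, and the median of all arms by -0.75.

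The 5' arm of mir-130a was called in 2 tissues. It was higher in heart (log2 fold change 1.52, SE 0.39, edgeR adjusted p = 0.0154), with 314 CPM in BN-Lx and 258 CPM in SHR. It was lower in brain (-1.45, SE 0.48, adjusted p = 0.0179), with 58.2 and 44.8 CPM. Heart called 12.7% of all arms higher and 7% lower, and brain 38.9% higher and 23% lower, with no other member arm among them. Both calls were lost when either library of the tissue was left out (adjusted p from 0.0713 to 0.204) or with scaling by total reads (0.0793 in heart, 0.154 in brain), and that in brain also with the further livers included (0.0547). That scaling gave 45 higher and 64 lower arms in heart in place of 58 and 32, and 214 and 70 in brain in place of 178 and 105.

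No member arm was called in kidney, where 15.5% of all arms were higher and 7% lower, or in testis, with 11.2% higher and 13.6% lower. mir-130a-3p was called in none of the 6 comparisons. Its lowest fitted value was in testis, at a log2 fold change of -2.26 (SE 0.97, edgeR adjusted p = 0.119), which passed the threshold without BN-Lx kidney (-2.36, adjusted p = 0.00141) and with no filter on low counts (-2.28, adjusted p = 0.00964). It was -1.35 without SHR kidney (adjusted p = 0.0502) and -1.25 with scaling by total reads (adjusted p = 0.422). In testis, 3 reads corresponded to 44.4 CPM in BN-Lx and 46.4 CPM in SHR, above the levels of mir-130b-3p in spleen, so its absence there was not detectable as a difference at this depth. The 0 reads of mir-130b-3p and mir-301b-3p among the 271 testis reads with the family seed allow a share of up to 1.11%.

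By the 5-fold rule of the study, a miRNA is specific to a tissue when its reads over the outlier-corrected mean (ocm, the mean of the known arms without the 3 highest) are at least 5 times those of every other tissue in both strains. Of 697 arms, 210 met this rule, 30.1%, and 13 of them, or 1.87%, in spleen. Of the 8 member arms 2 met it, both of the chromosome 11 cluster and both in spleen. mir-130b-5p in spleen was 7.59 times the next tissue, heart, in BN-Lx and 5.56 times in SHR. Against the floor of 3 reads in testis the same values were 1.39 and 1.34, so that a 5-fold difference from testis was not measurable. mir-301b-5p met the rule on 7 reads and did not meet it when 10 reads were required in the tissue in each strain. mir-301b-3p was 3.87 and 6.12 times heart and met a 3-fold rule.

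On the TMM scale, the sum of the 3' arms, taken as all reads with the family seed, was highest in spleen within the six-tissue set. It was 5184 CPM in BN-Lx spleen and 5320 CPM in SHR spleen, followed by kidney (3480 and 5037 CPM) and heart (4614 and 3415 CPM). Brain (2001 and 2536 CPM), liver (2435 and 2070 CPM) and testis (1970 and 2133 CPM) overlapped one another below these. The order depended on the scaling. As reads over the ocm, testis was 4.21 in BN-Lx and 3.92 in SHR. Spleen was 4.17 and 5.29 on that scale, and heart 3.89 and 2.88. The further livers held 12109 and 10594 CPM in BN-Lx and 8808 and 4769 CPM in SHR. Of these, 3 lay above every library of the six-tissue set on the TMM scale. Over the ocm, SHR liver 2 (5.1) was below SHR spleen (5.29). As a share of all reads, the 8 member arms held at most 0.602% in the further livers. They held 0.713% in SHR kidney, and 0.521% and 0.618% in the spleens of BN-Lx and SHR. Tissue accounted for 91.1% of the sum of squares of the log2 level (exact permutation test over all 720 assignments of the tissues between the strains, p = 0.0319). After adjustment over the 12 exact tests run on the family this was p = 0.383, so the test did not pass the threshold. The smallest p that these permutations can give is 0.00139.

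The share of each member in these reads shows which hairpin supplied the seed. mir-130a-3p supplied 60.2% (exact 95% confidence interval 57.0 to 63.3) of the seed in BN-Lx liver 1 and 57.7% (54.3 to 61.1) in SHR liver 1. In brain it supplied 32.7% in BN-Lx and 24.6% in SHR, and in heart 40.4% and 33.6%. In SHR kidney its share was 51.3% (49.8 to 52.9) and in BN-Lx kidney 2.53% (1.93 to 3.24). The cluster of mir-301b and mir-130b supplied 1.57% and 1.99% in the spleens of BN-Lx and SHR and at most 0.618% elsewhere. All such intervals cover counting error only, since reads made by PCR without molecular identifiers are not independent molecules, and ligation can favour 1 sequence over another.

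**Figure D2:**
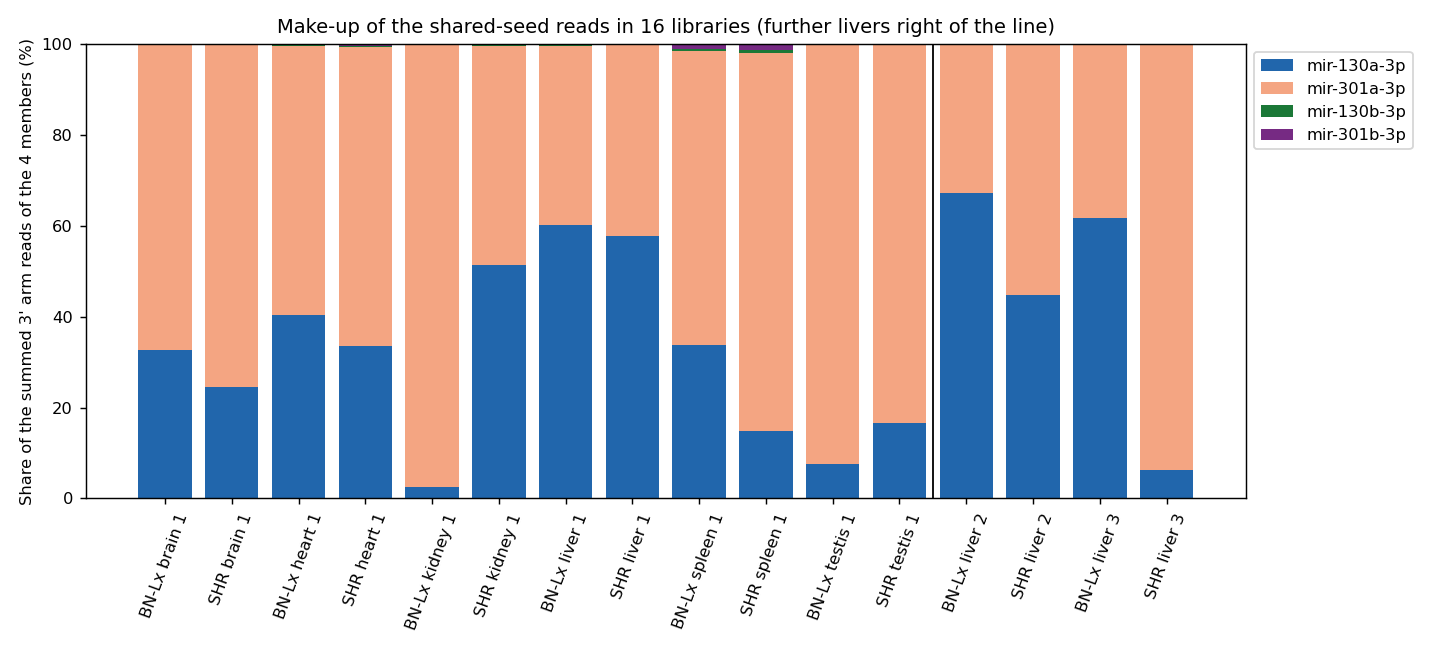
Share (%) of mir-130a-3p, mir-301a-3p, mir-130b-3p and mir-301b-3p in the summed 3' arm reads of each of the 16 libraries, with the further livers to the right of the line. mir-130a-3p ranges from 2.53% in BN-Lx kidney to 67.2% in BN-Lx liver 2, and stands at 6.32% in SHR liver 3.

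mir-301a-3p had more reads than mir-130a-3p in 11 of 16 libraries, and fewer in 4 of the 6 livers and in SHR kidney. The ratio of mir-301a-3p to mir-130a-3p reads was 2.05 and 3.05 in the brains of BN-Lx and SHR, 1.91 and 5.61 in the spleens and 1.46 and 1.96 in the hearts. It was 12.3 and 5 in the testes, with few reads of mir-130a-3p. In kidney it was 38.6 in BN-Lx and 0.942 in SHR, the widest gap between the strains. Tissue accounted for 49.4% of the sum of squares of the log2 ratio (exact permutation test, p = 0.479, adjusted p = 0.8). Without the kidney libraries, a choice made after the values were seen, it accounted for 85.1% (exact permutation test, adjusted p = 0.3).

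In BN-Lx kidney the low reads were those of the 3' arm of mir-130a alone among the abundant member arms. mir-130a-3p had 60 reads against 2109 in SHR kidney. mir-130a-5p had 176 reads against 120, and mir-301a-3p 2314 against 1987. Thus the 3' arm was 29.4-fold lower in CPM in BN-Lx kidney, while its own 5' arm and the 3' arm of mir-301a were not lower. Of the 153 arms with at least 200 reads over both kidneys, mir-130a-3p had the second lowest log2 ratio of BN-Lx to SHR, at -4.87 (0.5 CPM added), and the lowest was that of mir-200b-5p at -7.67. The median arm was at 0.12, and 6 of the 153 lay below -2. The kidneys were looked at because mir-130a-3p stood apart there, so this rank is a description and no test. With 1 kidney per strain there is no replicate check of this difference.

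The share of mir-130a reads that came from the 5' arm differed accordingly between the kidneys. It was 74.6% (exact 95% interval 68.5 to 80.0) in BN-Lx kidney and 5.38% (4.48 to 6.4) in SHR kidney. In the other 10 libraries of the six-tissue set the lowest share was 6.50%, in BN-Lx liver 1, and the highest 28.6%, in BN-Lx testis, the latter from 14 reads. For mir-301a the highest share in this set was 6.85%, in BN-Lx brain, and the lowest 0.806%, in BN-Lx testis, and the further livers held 0.261% to 0.778%, so that the 3' arm had most reads in all 16 libraries. Between tissues, neither the 5' arm share of mir-130a (37.7% of the sum of squares, exact permutation test, p = 0.787, adjusted p = 0.861) nor that of mir-301a (64.9%, p = 0.317, adjusted p = 0.76) passed the test. Without the kidney libraries the value for mir-130a was 69.4% (exact permutation test, adjusted p = 0.5).

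Summed over the 16 libraries, mir-130b was the only member with more reads from the 5' arm than from the 3' arm, at 76.9% of 389 reads. Summed over the six-tissue set, 80.7% (exact 95% interval 76.0 to 84.8) of its 331 reads came from the 5' arm, with 85.0% of 133 reads in BN-Lx spleen and 75.0% of 84 in SHR spleen. In the further livers it was 55.2% of 58 reads (41.5 to 68.3). Its neighbour mir-301b had 6.03% of 116 reads (2.46 to 12) on the 5' arm in the six-tissue set and 0 of 44 reads in the further livers. The 2 hairpins of the cluster therefore differed in their leading arm, and most reads of mir-130b did not carry the family seed.

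**Figure D3:**
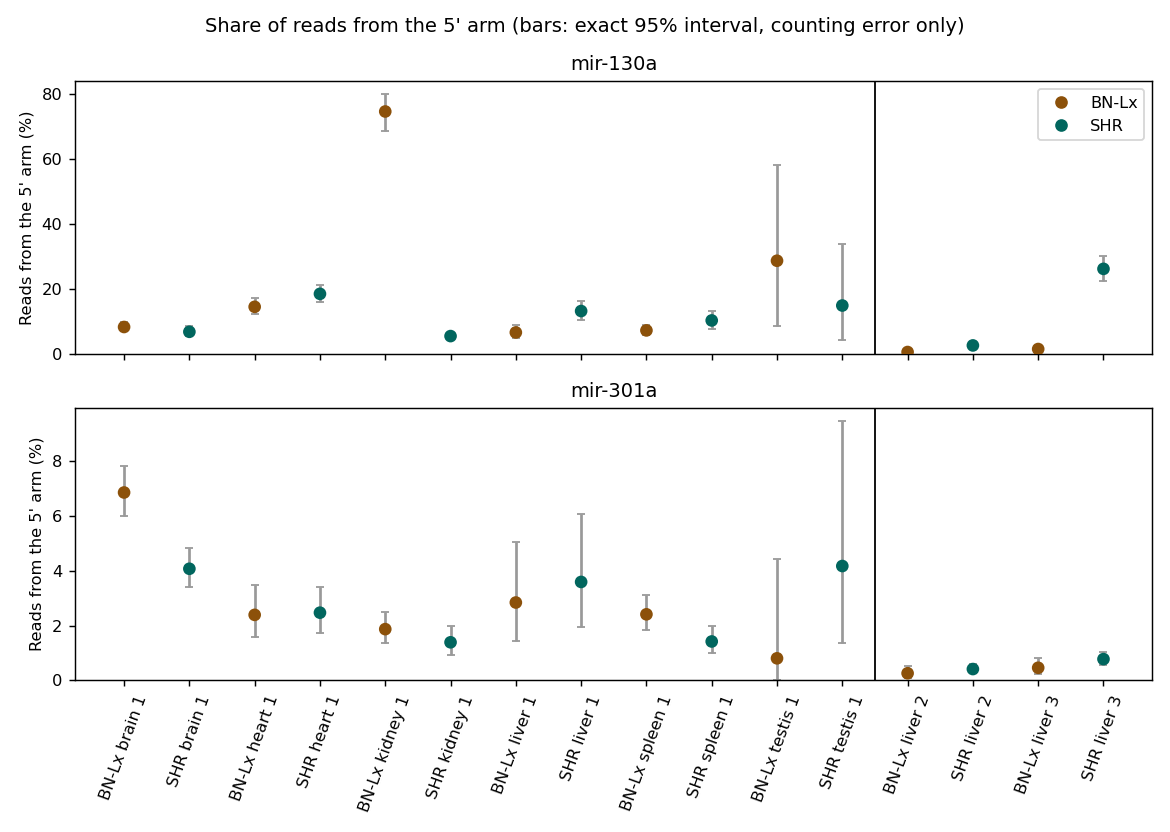
Share (%) of the reads of mir-130a (top) and mir-301a (bottom) that came from the 5' arm in each library, coloured by strain, with exact 95% intervals for counting error, and the further livers to the right of the line. For mir-130a, BN-Lx kidney (74.6%) lies above all other libraries and SHR liver 3 (26.1%) above the other livers, whereas mir-301a stays at or below 6.85%.

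The livers allowed a comparison of the strains with 3 libraries each, which addresses whether miRNA levels of the liver differ between these founder strains. The level of mir-130a-3p was 1466, 8143 and 6538 CPM in BN-Lx livers 1 to 3, and 1195, 3935 and 301 CPM in SHR livers 1 to 3. The strains overlapped, but SHR was lower within the six-tissue livers and within the further livers. No label matches livers 2 and 3 between the strains, so same-numbered livers were not treated as pairs in the main fit. The mean was 5382 ± 3485 CPM in BN-Lx and 1811 ± 1894 CPM in SHR (SD, n = 3), and the edgeR log2 fold change of SHR over BN-Lx was -1.81 (SE 0.93, adjusted p = 0.995, unadjusted p = 0.0902). Leaving out 1 liver at a time, the edgeR value ran from -2.96 without SHR liver 2 to -1.32 without SHR liver 3 (adjusted p = 0.999 for the latter). With the replicate number as a block it was -2.09 (adjusted p = 0.538).

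mir-301a-3p overlapped between the strains and was separated by set instead. Its level was 959, 3950 and 4035 CPM in the 3 BN-Lx livers and 871, 4848 and 4457 CPM in the 3 SHR livers. The means were 2981 ± 1752 and 3392 ± 2192 CPM (SD, n = 3), with an edgeR log2 fold change of -0.11 (SE 0.68, adjusted p = 0.995), which is opposite in sign to the difference of these means and within its error. All 4 further livers lay above both livers of the six-tissue set. The 5' arms, which are the lesser strands of these hairpins, were not separated in this way on the TMM scale. mir-301a-5p was 28.0 and 32.4 CPM in the six-tissue livers and 10.3 to 34.9 CPM in the further livers. mir-130a-5p was 102 and 180 CPM in the six-tissue livers and 38.4 to 106 CPM in the further livers. As reads over the ocm, however, both 5' arms were lower in all 4 further livers. mir-130a-5p was 0.101 and 0.169 in the six-tissue livers against 0.0275 to 0.0711. mir-301a-5p was 0.0278 and 0.0305 against 0.00741 to 0.019. mir-301a-3p stayed higher in the further livers on that scale, at 2.42 to 3.11 against 0.949 and 0.82. The 2 sets differed in depth and read length, so rat and library set cannot be told apart here.

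**Figure D4:**
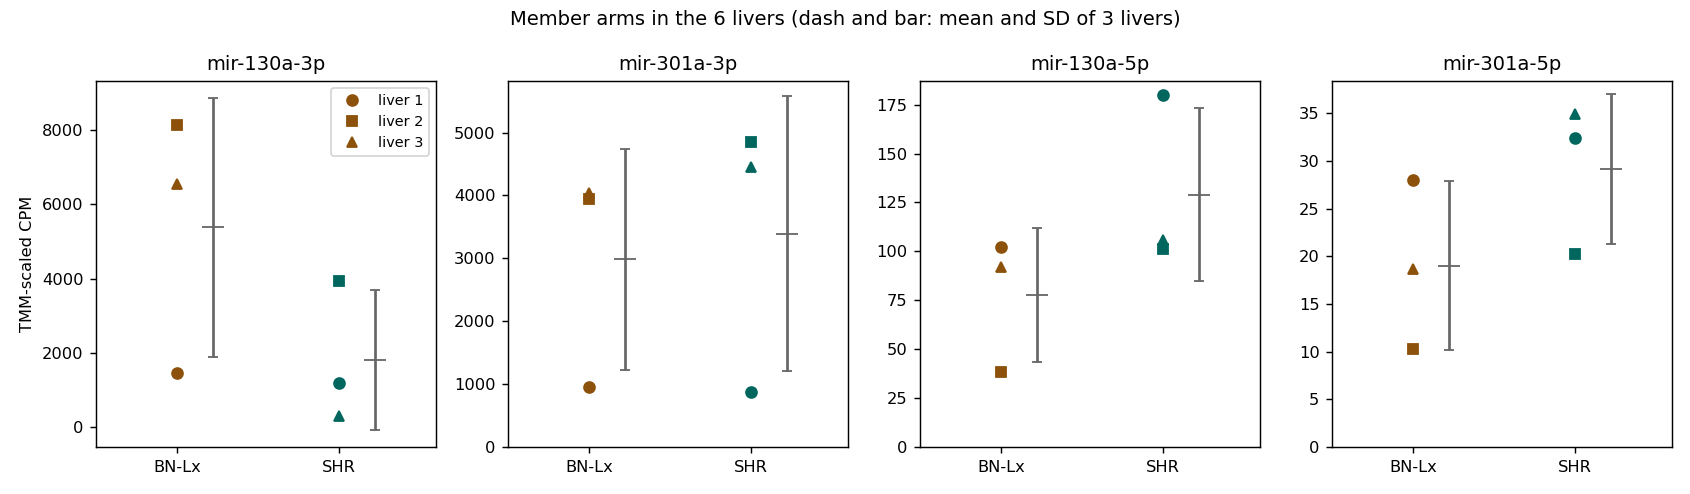
TMM-scaled CPM (linear axes) of mir-130a-3p, mir-301a-3p, mir-130a-5p and mir-301a-5p in the 6 livers, with a marker for each liver number and the mean ± SD of 3 livers beside each strain. The strains overlap in all 4 panels, the 2 livers numbered 1 are the lowest for mir-301a-3p, and SHR liver 3 (301 CPM) is the lowest for mir-130a-3p.

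None of the 4 member arms that passed the filter in liver was called between the strains, and the other 4 had too few reads to be tested. The background was the same, with 0 of 271 arms, or 0%, called by edgeR, 6 arms at an unadjusted p under 0.05, and 0 called by DESeq2 with 9 such arms. The log2 fold changes were 0.44 (SE 0.61) for mir-130a-5p and 0.30 (SE 0.65) for mir-301a-5p (edgeR adjusted p = 0.995 for each). Leaving out 1 liver at a time moved mir-130a-5p between 0.01 (without SHR liver 1) and 0.88 (without BN-Lx liver 1). The biological coefficient of variation of the livers was 0.626. Over the 6 tissues, 0 of 457 arms, or 0%, differed between the strains by edgeR, with 8 at an unadjusted p under 0.05, and 0 by DESeq2, with 18. mir-301a-3p stood at -0.03 (SE 0.24) and mir-130a-3p at 0.30 (SE 0.66, adjusted p = 0.996 for each). The sign of mir-130a-3p rested on kidney, since it was -0.33 without the kidney libraries, with an adjusted p of 0.998 by edgeR.

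In SHR liver 3 the pattern of BN-Lx kidney was seen again. mir-130a-3p had 371 reads there against 5063 in SHR liver 2, a 13.1-fold lower CPM. mir-130a-5p had 131 reads against 130, and mir-301a-3p 5486 against 6237. Of 186 arms with at least 200 reads over these 2 livers, mir-130a-3p had the lowest log2 ratio, at -3.70 (0.5 CPM added). The median arm was at 0.03, with 4 arms below -2 and 6 above 2. SHR liver 3 was likewise picked for its low mir-130a-3p, so this rank is no test. The 5' arm share of mir-130a was 26.1% (exact 95% interval 22.3 to 30.2) in SHR liver 3 and 0.469% to 2.50% in the other further livers. Muscle miRNAs moved with the libraries numbered 3 for 2 of 3 examined. mir-1-3p was 1307 CPM in SHR liver 3 and 962 CPM in BN-Lx liver 3, against 11.8 to 68.8 CPM in the other livers, and mir-206-3p was 314 and 192 CPM against 0.777 to 107 CPM in the other livers. The third muscle miRNA looked at, mir-133a-3p, was 28.4 and 30.5 CPM, within the 0.389 to 65 CPM of the other livers. mir-130a-3p was 6538 CPM in BN-Lx liver 3, and BN-Lx kidney held 1.46 CPM of mir-1-3p and 2.93 CPM of mir-206-3p. The part of the muscle miRNAs in the result was not tested.

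The exact tests of the livers did not resolve the strains either, since 3 libraries against 3 cannot give a two-sided p below 0.1. The log2 ratio of mir-301a-3p to mir-130a-3p was -0.78 ± 0.23 in BN-Lx and 1.24 ± 2.32 in SHR (SD, n = 3), a difference of 2.03 with no overlap of the strains (exact permutation test, p = 0.1, adjusted p = 0.4). Leaving out 1 liver at a time moved the difference between 0.71 (without SHR liver 3) and 2.88 (without SHR liver 1). The 5' arm share of mir-130a was 2.79% ± 3.25 in BN-Lx and 13.9% ± 11.8 in SHR (exact permutation test, p = 0.2, adjusted p = 0.6), and the difference of 11.1 points was 5 without SHR liver 3 and at most 16.8 with another liver left out. The log2 level of the whole family was 12.73 ± 1.28 and 12.11 ± 1.05 (exact permutation test, p = 0.5, adjusted p = 0.8). It was lower in SHR within the six-tissue livers and within the further livers, and the difference of the means was -0.61. Leaving out 1 liver at a time moved it between -1.35 (without BN-Lx liver 1) and -0.07 (without SHR liver 1), with -0.67 without SHR liver 3. For mir-301a the 5' arm share was 1.19% ± 1.44 and 1.59% ± 1.74 (exact permutation test, p = 0.6, adjusted p = 0.8).

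The strain difference of mir-130a-3p was of opposite sign in kidney and liver. The difference between them was 6.45 on the log2 scale, fitted with edgeR's quasi-likelihood test over all 16 libraries after these values had been seen. Only the livers had more than 1 library per strain and tissue. Any p-value of this fit therefore measures the spread between livers, and the kidney difference has no spread of its own. Of the 466 arms tested, 0 were called, or 0%, and 14 had an unadjusted p under 0.05. DESeq2 was not run on this difference.

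The 5' ends of the reads, which set the seed, were nearly fixed. Of the reads of mir-130a-3p 99.6% began at base 55 of the hairpin, and of those of mir-301a-3p 98.5% at base 61. For all 7 arms with a RefSeq sequence the leading start was the annotated one. A start 1 base later, which shifts the seed by 1 base, made up 0.147% of mir-130a-3p, 1.44% of mir-301a-3p and 9.15% (14 of 153 reads) of mir-301b-3p. By library, the leading start held 96.7% to 100% of mir-130a-3p and 97.3% to 100% of mir-301a-3p. No difference passed the test between tissues (exact permutation test, p = 0.1, adjusted p = 0.4 for mir-130a-3p, and p = 0.861, adjusted p = 0.861 for mir-301a-3p) or between the strains in liver (exact permutation test, p = 0.8, adjusted p = 0.861, and p = 0.6, adjusted p = 0.8).

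The 3' ends varied more. The 22-nt read that ends at base 76, the annotated end, made up 75.8% of mir-130a-3p over the 16 libraries. It held 44.6% in SHR kidney to 66.9% in SHR heart among the six-tissue libraries with over 100 reads, and 76.3% to 91.4% in the further livers. In BN-Lx kidney, where mir-130a-3p was low, the 20-nt read led with 48.3% (29 of 60 reads), and the 22-nt read held 21.7%. In SHR liver 3 the 20-nt read held 19.9% and the 21-nt read 1.08%, whereas in the other further livers the 21-nt read held 4.83% to 8.39%. In SHR heart the 20-nt read was nearly missing, with 1 of 707 reads, against 20.8% in BN-Lx heart. These changes in length leave the seed as it is.

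mir-301a-3p was longer, with a leading read of 23 nt that ends at base 83 and made up 53.5% of its reads. It held 51.4% to 70.3% in the six-tissue set and 41.2% to 46.5% in the further livers. A 25-nt read of this arm held 27.8% to 35.3% in the further livers and was seen once in the six-tissue set, in SHR spleen. Over all hairpins, reads of 25 nt or longer were 0.161% to 0.296% of the further livers and at most 0.00744% of a six-tissue library, so the length range of the deposited reads differed between the sets. Whether the higher level of mir-301a-3p in the further livers rests on this was not tested.

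**Figure D5:**
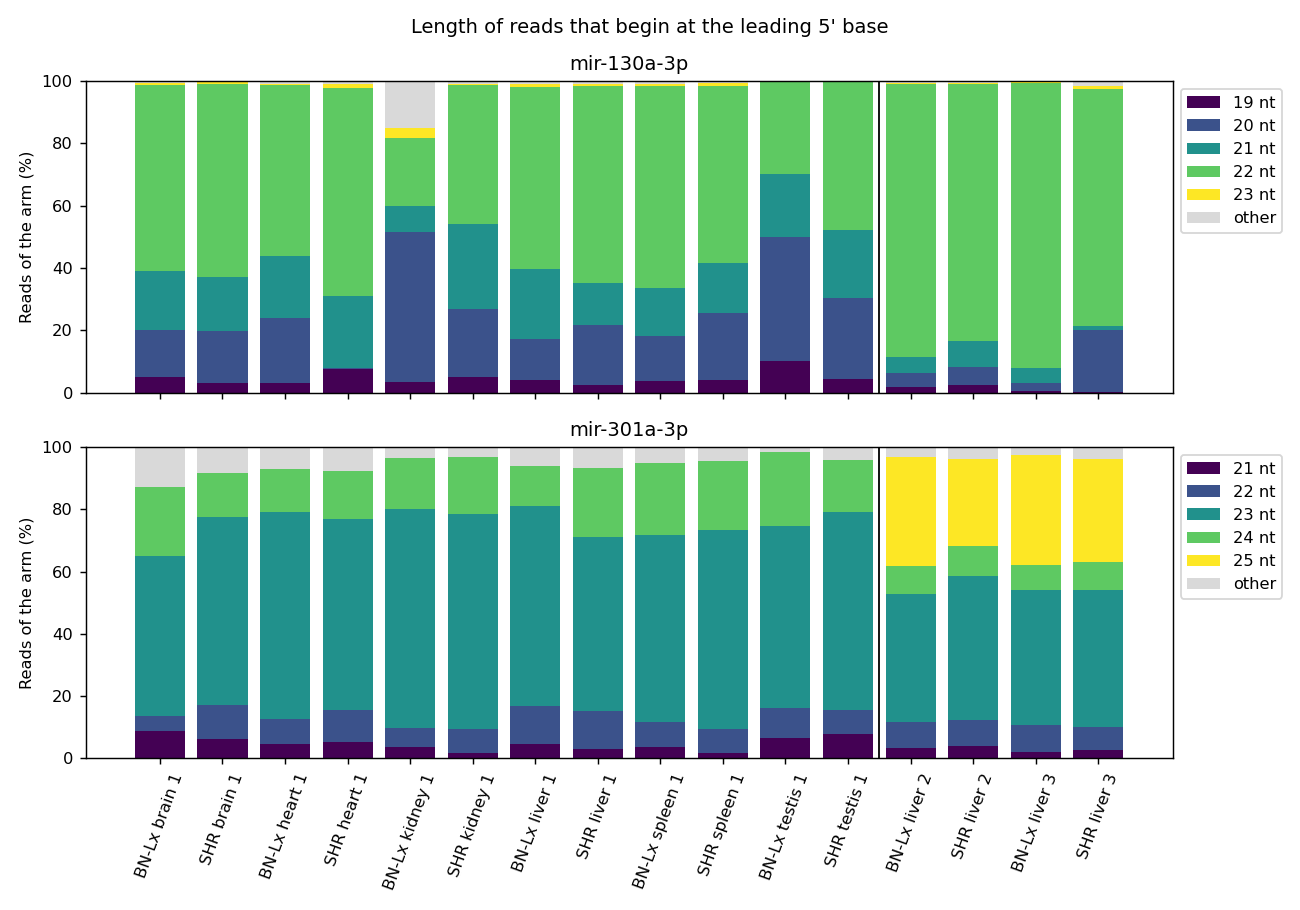
Share (%) of reads of mir-130a-3p (top) and mir-301a-3p (bottom) by length, for the 5 most frequent reads of each arm, all of which begin at its leading 5' base, with every other read in grey and the further livers to the right of the line. The 20-nt read leads in BN-Lx kidney (48.3%) and is nearly missing in SHR heart (0.141%) for mir-130a-3p, and the 25-nt read of mir-301a-3p appears in the further livers (27.8% to 35.3%).

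The arms most like these 2 in their profile over the 12 six-tissue libraries were found among the arms with at least 100 reads, as a description with no test. For mir-301a-3p, Spearman's rho was 0.832 with mir-140-3p, 0.746 with mir-130b-5p and 0.734 with mir-199a-3p. For mir-130a-3p the highest values were lower, 0.671 with mir-30b-5p, 0.669 with mir-24-1-5p and 0.657 with mir-22-3p. Between the 2 main members of the family rho was 0.049 over these 12 libraries. They include BN-Lx kidney, with 87.9 CPM of mir-130a-3p and 3389 CPM of mir-301a-3p. No rho was computed without that library. The clustered arms mir-130b-5p and mir-301b-3p had a rho of 0.811. The 12 libraries come from 2 rats and share their depth between arms, so these points are not independent.

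Other miRNAs overlap the family seed by 6 bases. The 3' arms of mir-19a and mir-19b have the seed GUGCAAA, which contains GUGCAA, and those of mir-148b and mir-152 have CAGUGCA, which contains AGUGCA. Of these 5 arms, with mir-19b counted for its 2 hairpins, which share reads, 3 were called higher in spleen by edgeR (18.4% of all arms), 3 higher in liver (13.8%), 1 higher in testis (11.2%) and 4 lower in brain (23%), and none in heart or kidney. Each of the 5 had more reads than mir-130b-3p and mir-301b-3p. The 3' arm of mir-19b-1 had 88330 reads over the 16 libraries, and that of mir-19b-2 had 89281.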

How the data were processed

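Size-selected small RNA was sequenced on SOLiD after Ambion library preparation, with more PCR cycles for testis and SHR liver than for the rest. The authors mapped reads to RGSC3.4 and deposited estimated counts of perfectly matching reads per start and end on each hairpin, divided over hairpins where a read fits several. All 638 positions of the members held whole numbers. Reads were summed by arm (711 arms) and rounded for edgeR 4.0.16 (R 4.3.3), and DESeq2 1.42.0 was the alternative. Low counts were filtered with filterByExpr. The threshold was an adjusted p of 0.05. Exact tests used scipy 1.17.1. Scripts were tested on simulated data. The members and lists were chosen with earlier results of these data known. Named arms were the 8 member arms, the 5 overlapping-seed arms as counts, and for mir-130a-3p and mir-301a-3p the 3 most similar arms; kidney, liver 3, mir-200b-5p and the muscle miRNAs were added after values were seen. The labels gave no pairing of the livers, and the main liver fit used strain only, with the replicate number as a block in an alternative. Same-numbered livers deviated together (correlations 0.668, 0.57 and 0.3). Both livers numbered 1 belong to the six-tissue set, so replicate number and library set cannot be told apart in these correlations. A table of piRNAs was not used. P-values measure the spread between these libraries.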

Additional observations from a re-analysis of the deposited data

Results flagged for a closer look

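Reads were also assigned to the antisense strand of the mir-130a hairpin, outside the 4 members. There were 24 such reads in 8 of the 16 libraries, with 6 in BN-Lx liver 3, 5 in BN-Lx spleen and 4 in SHR spleen. No other library held more than 3.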

How the results depend on the processing

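Of 486 values recomputed under alternatives, 434 kept their direction and side of the threshold or stayed within 1.5 times. Arms called changed to 137 in heart with DESeq2, and to 58 in kidney, 226 in liver and 81 in spleen with the further livers. Leaving out 1 library at a time gave 44 to 111 arms in heart, 39 to 134 in liver, 52 to 149 in spleen, 63 to 119 in testis, and 2 to 5 member arms in spleen. The window test of the study called 5 liver arms and 0 of the 7 member arms it could take (mir-130a-3p -1.79, adjusted p = 0.103). With at least 10 reads required, 1 member arm met the 5-fold rule. The cause of these changes was not tested.

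Some differences near 0 turned sign. Between the strains in liver, leaving out 1 liver at a time gave log2 fold changes of -0.48 to 0.35 for mir-301a-3p and -0.07 to 0.86 for mir-301a-5p. It gave differences of -0.592 to 1.23 points in the 5' arm share of mir-301a, -0.0393 to 0.189 in the leading start share of mir-130a-3p (-0.0203 counting starts within 1 nt) and -0.0112 to 0.468 in that of mir-301a-3p. Over the 6 tissues, the strain difference was -0.30 to 0.67 for mir-130a-3p and -0.12 to 0.11 for mir-301a-3p with 1 library left out. Without the kidney libraries it was -0.33 and 0.03, and mir-301a-3p stood at 0.02 without testis. The liver value of mir-301a-3p was 0.40 with the further livers.

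Scaling by relative log expression gave 53 higher and 49 lower arms in kidney in place of 71 and 32, 65 and 49 in testis in place of 51 and 62, and 52 and 44 in heart in place of 58 and 32. Total reads gave 100 and 20 in testis. The replicate block changed no call in liver (mir-130a-3p -2.09, mir-301a-3p -0.20, mir-130a-5p 0.50, mir-301a-5p 0.40), with 0 arms called and 22 at an unadjusted p under 0.05. As paired differences it left the family level at -0.61, the log2 ratio at 2.03, the 5' arm shares at 11.1 and 0.406 points and the start shares at 0.0833 and 0.211 points. The omission of kidney, the contrast of kidney with liver and the omission of testis from the tissue comparisons were chosen after the data were seen. Whole hairpins gave no value per arm. In testis, depth limits what can be seen of mir-130b and mir-301b.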
